A study of Mus musculus with 30 samples.

Results

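The comparison described here set 5 pancreas libraries labelled p53 KO against 5 pancreas libraries from i4F mice, which is 10 of the 30 libraries of the study. All came from C57BL/6 mice given 0.2 mg/ml doxycycline in drinking water for 7 days. In the i4F group the genotype was i4F with no knockout, where i4F is a cassette from which doxycycline switches on the reprogramming factors Oct4 (encoded by Pou5f1), Sox2, Klf4 and Myc. The labels of the other group read p53 KO and do not mention i4F, although the design text says that mice of every genotype were treated so that the factors were induced. The remaining pancreas group, i4F Ink4a/Arf KO, also has 5 libraries and is cited for a few values only. Neither the p53 allele, the ages of the mice nor the cell types that carry the cassette are given in the sources used here. Of 19685 genes in the deposited pancreas table, 10703 had at least 1 FPKM (fragments per transcript length and per library total) in at least 5 of the 10 libraries, and these were tested.

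Acinar cells make up most of the exocrine pancreas and fill it with messenger RNA for a small set of digestive enzymes, under the control of a group of transcription factors that includes Ptf1a, Rbpjl, Bhlha15 and Nr5a2. Ducts drain the acini, islets hold the hormone-producing cells, and fibroblasts, vessels and leukocytes lie between them. When the pancreas is injured or its acinar factors are lost, acinar cells can lower enzyme transcripts and take on duct-like gene expression. Forced expression of the reprogramming factors is known to make differentiated cells in tissues lose their identity genes.

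The 10 libraries differed in their make-up before any gene was compared. Those labelled p53 KO held 10507 to 13194 genes at 1 FPKM or more and the i4F libraries 6596 to 9852. Since FPKM are relative to the total of a library, the values were scaled so that the median gene had the same level in all 10 (median-of-ratios factors of 1.016 to 3.017 in labelled p53 KO and 0.353 to 0.776 in i4F). The text gives scaled FPKM and changes on the log2(scaled FPKM + 1) scale, labelled p53 KO minus i4F, unless the words as deposited appear. The median change of all tested genes was 0.04 scaled and 1.59 as deposited, so a gene of the same scaled level has a positive change as deposited. An alternative left acinar enzyme genes out and scaled each library to the summed FPKM of its other genes, which is not a median-of-ratios scaling. Later mentions of acinar genes left out of the scaling refer to it. The deposited values are FPKM without counts, so the depth behind single genes is unknown beyond the more than 24 M mapped reads per sample that the labels state. All 5 labelled p53 KO libraries and 2 of the 5 i4F libraries were male by Ddx3y and Xist, and i4F replicate 4 stood apart from the other i4F libraries in transcripts of lymphocytes and fat.

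Trp53, the gene that encodes p53 (chromosome 11, 69580359 to 69591873, GRCm38), did not mark the libraries labelled p53 KO. Its scaled FPKM in replicates 1 to 5 were 5.44, 7.52, 6.61, 6.54 and 8.74 in labelled p53 KO. In i4F they were 5.37, 4.65, 5.98, 9 and 5.66. The groups overlapped, with means of 6.97 ± 1.24 and 6.13 ± 1.68 (SD, n = 5 each), a log2 change of 0.17 (SE 0.16, adjusted p = 0.362 by limma) and 1.91 as deposited (adjusted p = 3.05e-04). The FPKM count all exons, so a deletion that leaves part of the transcript would not be seen, and the group is called labelled p53 KO throughout. Cdkn2a, which encodes the p16 and Arf proteins of the Ink4a/Arf locus, missed the filter. It was deposited at 10.7, 5.33, 2.07, 0.496 and 14.3 FPKM in labelled p53 KO and at 0, 0, 0, 0.318 and 0.0684 in i4F, and the groups did not overlap.

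The 4 induced factors were all higher in labelled p53 KO. Pou5f1 measured 26.6, 38.4, 25.1, 24.2 and 14.4 scaled FPKM in labelled p53 KO. Its i4F values were 0.655, 0, 1.65, 1.47 and 1.86. Every labelled p53 KO value lay far above every i4F value, a log2 change of 3.69 (SE 0.31, adjusted p = 8.48e-06). Sox2 rose by 2.71, Klf4 by 1.91 and Myc by 1.32 (SE 0.16, adjusted p = 5.99e-05), and none of the 3 overlapped between the groups. Sox2 passed the filter through labelled p53 KO alone, so it had to be higher there as deposited. The values of Myc were 32.7, 32.8, 38.4, 35.5 and 21.9 against 11.1, 10.8, 13.4, 14.3 and 11.3, with labelled p53 KO replicate 5 the lowest of its group. Gene-level FPKM pool RNA from the cassette with RNA from the endogenous genes. Nanog, a pluripotency gene outside the cassette, missed the filter at 0.723, 1.62, 0.167, 0.193 and 0.158 scaled FPKM against 0.124, 0, 0, 0.0521 and 0.

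The whole ranking was broad. Of the 10703 genes 6858 passed limma's test at an adjusted p under 0.05 (64.1%), 3572 higher (33.4%) and 3286 lower (30.7%) in labelled p53 KO. As deposited 9645 were higher (90.1%) and 205 lower (1.92%). Counts of list members below are to be read beside these shares. All 3572 scaled rises were also called higher as deposited, whereas of the 3286 scaled falls 205 were called lower, 2301 higher and 780 neither. The scaled values of the groups did not overlap in 4858 genes (45.4%), of which 2558 were higher and 2300 lower in every labelled p53 KO library. The filter favours rises: 942 genes were tested although no i4F library reached 1 FPKM, and 743 of them were called higher, while 8 genes passed through i4F alone and all 8 were called lower. Among the 9753 genes at 1 FPKM or more in a library of each group, 2829 were called higher and 3262 lower. In the male libraries alone (5 against 2, an alternative chosen after seeing the data) 6494 were called, with 10 of 10 stratified epithelium genes higher (median 5.14) and 19 of 27 acinar enzymes lower (median -5.82).

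The middle of the ranking was narrow and its ends long. At the 25th and 75th percentiles the change was -0.47 and 0.56, at the 5th and 95th percentiles -1.52 and 1.79, and at the 1st and 99th -2.90 and 3.22. Called rises of over 4 log2 units numbered 47 and called falls of that size 41. The bottom 100 genes held 22 acinar enzyme genes, 3 acinar transcription factors, 3 islet genes and 3 genes of the unfolded protein response. The top 100 held 8 genes of stratified epithelium, 5 of matrix remodelling, 4 of fibroblasts, and 2 each of ducts, secreted senescence factors, acute phase proteins and acinar enzymes. The 2 acinar genes, Cela2a and Pnlip, stood at ranks 1 and 2 and were listed at 0 in all i4F libraries, so no change can be read for them. On none of the 45 gene lists were 65 of the bottom 100 and 69 of the top 100.

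**Figure D1:**
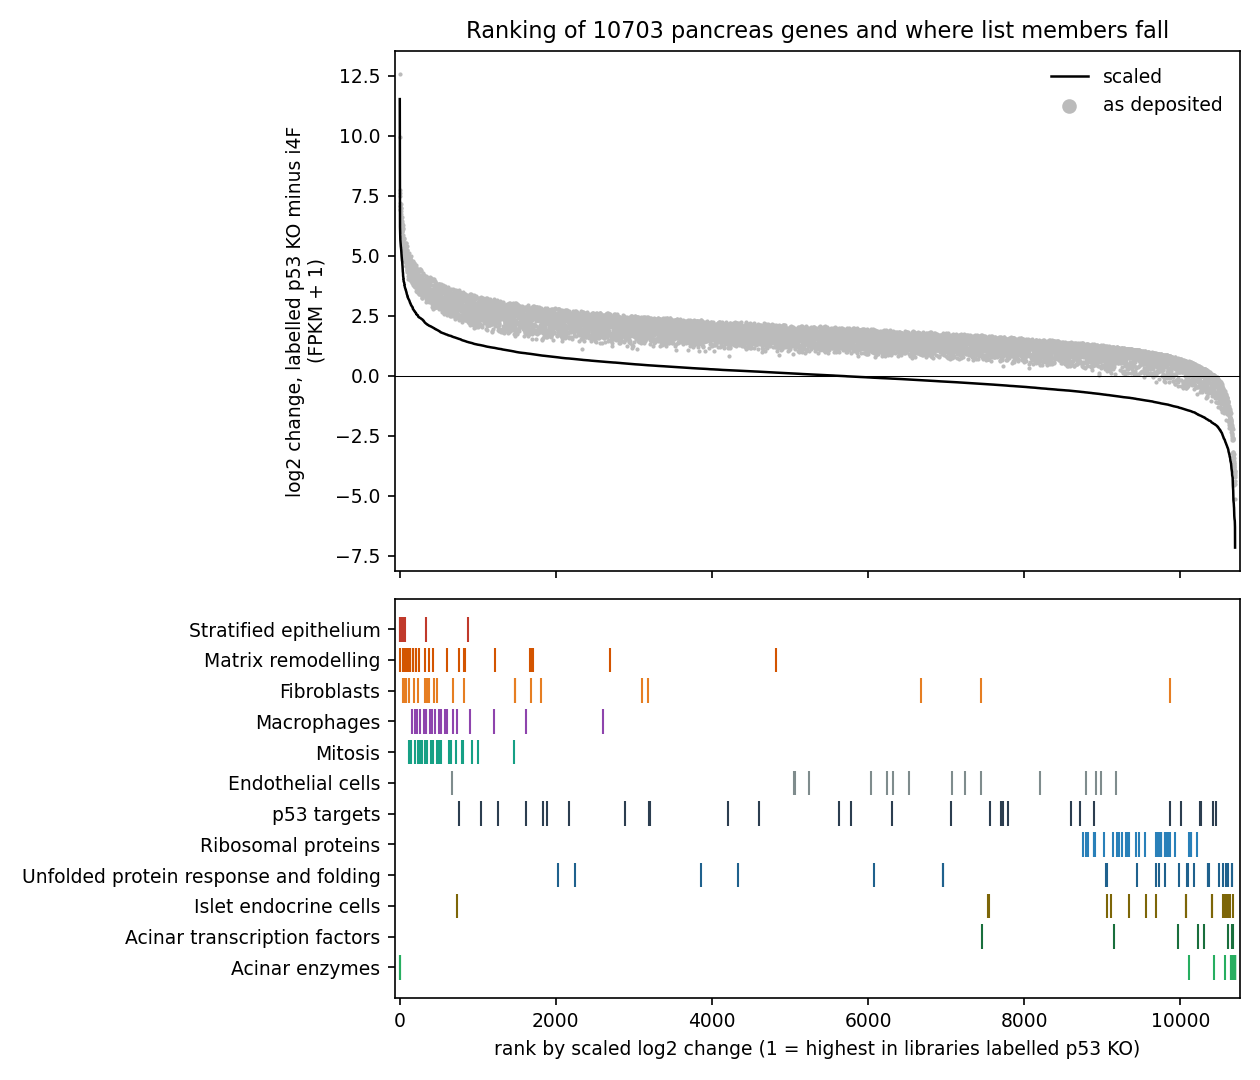
The upper panel plots the log2 change of FPKM + 1 (labelled p53 KO minus i4F) of 10703 genes by rank, scaled as a black line and as deposited as grey points. Ticks in the lower panel mark the ranks of the tested members of 12 gene lists: stratified epithelium, matrix, fibroblast, macrophage and mitosis genes lie at the left end, acinar and islet genes at the right, and most grey points are above 0.

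Acinar enzymes formed the bottom of the ranking. Of 27 tested members 21 fell and 2 were called higher, and the median change was -5.29, or -3.26 as deposited. Ctrl, which encodes a chymotrypsin-like protease, was the lowest-ranked gene (chromosome 8, 105932003 to 105933862). It was deposited at 657, 1534, 7813, 16420 and 22.1 FPKM in labelled p53 KO. In i4F it was deposited at 50200, 49510, 43860, 42500 and 36360 FPKM. Replicate 5 of labelled p53 KO had the least and replicate 4 kept the most, still below every i4F library, and the scaled change was -7.17 (SE 1.67, adjusted p = 0.00342). Cel (carboxyl ester lipase) and Clps (colipase, the cofactor of pancreatic lipase) fell, with changes of -6.10 and -6.28. The change of the carboxypeptidase gene Cpb1 was -5.84, and that of Pla2g1b (pancreatic phospholipase) was -6.32 (SE 1.55, adjusted p = 0.00457). Under quantile normalization the changes of Clps and Cpb1 were -3.69 and -3.08 and did not pass (adjusted p = 0.0508 and 0.124). Clps was not called without the filter (adjusted p = 0.0548), nor Cpb1 in male libraries alone (adjusted p = 0.052). The same libraries were low and high in Cel as in Ctrl: the Cel labelled p53 KO values were 105, 558, 3703, 9109 and 34.2 scaled FPKM and the i4F values 55130, 54300, 41480, 25920 and 32770. Sycn, Pdia2, Rnase1 and Zg16, of the secretory granules and the acinar secretory pathway, were also among the 12 largest falls, with Tff2 (-5.96), which encodes a trefoil peptide, and Hamp2 (-6.04), a hepcidin gene.

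For 6 acinar genes no change can be read, because the table lists them at exactly 0 in libraries with high levels of other acinar enzymes. Cpa1 was at 0 in i4F replicate 5, Cela1 in i4F replicate 1 and Prss2 in i4F replicate 5, and with those zeros their changes of -2.77, -3.57 and -1.46 did not pass (adjusted p = 0.449, 0.356 and 0.709). In the 4 other i4F libraries Cpa1 measured 36780 to 104100 scaled FPKM, above the 450, 1053, 6052, 17280 and 32.5 of labelled p53 KO. Pnlip and Cela2a were at 0 in all 5 i4F libraries and are the 2 acinar genes called higher. Ctrb1, named after its values were seen, was at 0 in all i4F libraries and in labelled p53 KO replicates 3 and 4, and at 6110, 14080, 0, 0 and 1097 scaled FPKM across labelled p53 KO, so the zeros are not confined to i4F.

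The transcription factors of acinar cells were lower in the same libraries. All 8 tested members fell after scaling (median -1.68), while as deposited 3 were called lower and 2 higher (median -0.05). Rbpjl, which joins Ptf1a in the complex that drives enzyme genes, measured 3.02, 5.38, 15.3, 27.9 and 0.647 scaled FPKM in labelled p53 KO. The i4F libraries held 131, 115, 139, 70.4 and 116. The order of the labelled p53 KO libraries was that of the enzymes, with replicate 5 lowest and replicate 4 highest, and the groups did not overlap (log2 change -3.95, SE 0.65, adjusted p = 4.34e-04). Bhlha15 (Mist1, a regulator of secretory granule formation) and Ptf1a fell as well, with changes of -4.26 and -3.01, both also called lower as deposited (-2.68 and -1.21). Nr5a2, a nuclear receptor, changed by -1.62 scaled and -0.10 as deposited (adjusted p = 0.743). Gata6, which is expressed well beyond acinar cells, changed least, -0.34 scaled and 1.35 as deposited, a reversed call.

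The promoters of Ctrl and Cel are printed because the factors that fell include basic helix-loop-helix proteins (Ptf1a, Bhlha15), which bind E-boxes, and Rbpjl, which binds a TTTCCC-type box. Each line holds the 250 bases before the annotated start, from RefSeq (GRCm38.p6), for Ctrl at chr8:105933863-105934112 and for Cel at chr2:28563404-28563653, both on the minus strand and written 5′ to 3′. Capitals mark CANNTG and, on either strand, TTTCCC.
Ctrl: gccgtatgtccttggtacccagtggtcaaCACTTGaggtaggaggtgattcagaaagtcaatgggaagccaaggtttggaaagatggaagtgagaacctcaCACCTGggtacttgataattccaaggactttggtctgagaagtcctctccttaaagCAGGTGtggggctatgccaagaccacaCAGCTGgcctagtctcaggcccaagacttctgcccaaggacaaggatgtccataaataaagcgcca
Cel: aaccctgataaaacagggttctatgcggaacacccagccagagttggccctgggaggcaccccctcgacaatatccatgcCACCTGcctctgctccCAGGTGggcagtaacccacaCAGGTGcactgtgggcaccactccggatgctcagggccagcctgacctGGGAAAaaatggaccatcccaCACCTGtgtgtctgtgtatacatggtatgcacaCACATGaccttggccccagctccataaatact
Ctrl holds 4 E-boxes and no TTTCCC, and Cel holds 5 E-boxes and 1 TTTCCC read on the opposite strand. CANNTG, which is its own reverse complement as a pattern, stood in 18 of the 22 acinar enzyme promoters found in the RefSeq table (81.8%), in 53 of 66 promoters of the bottom 100 genes (80.3%), in 55.9% of the 7708 promoters of tested genes and in 66.0% of all 27025. TTTCCC stood in 6 of 22 (27.3%) against 23.2% of those of tested genes and 21.9% of all. A match is a description of the letters and not a binding site.

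Acinar enzymes took 21.7 ± 19.2% of the summed FPKM in labelled p53 KO and 68.6 ± 4.81% in i4F (SD, n = 5), a measure that no scaling between libraries alters. It includes the genes listed at 0, such as Cela2a and Pnlip in all i4F libraries and Ctrb1 in labelled p53 KO replicates 3 and 4. Because those zeros differ between libraries, the shares and their spread carry them. The shares were 8.29, 17.9, 32.9, 48.7 and 1.06% in labelled p53 KO replicates 1 to 5. In i4F they were 70.4, 73.8, 71.4, 65.9 and 61.7%, and in i4F Ink4a/Arf KO they averaged 68.7 ± 4.87%. The 2 compared groups did not overlap (exact permutation test, two-sided, p = 0.00794, the smallest this design allows; 0.0146 adjusted over 11 shares). Fewer acinar cells and less enzyme RNA per cell cannot be told apart in bulk RNA, here or in any group below. The libraries labelled p53 KO also had the wider spread, with an SD of 19.2 against 4.81 percentage points.

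**Figure D2:**
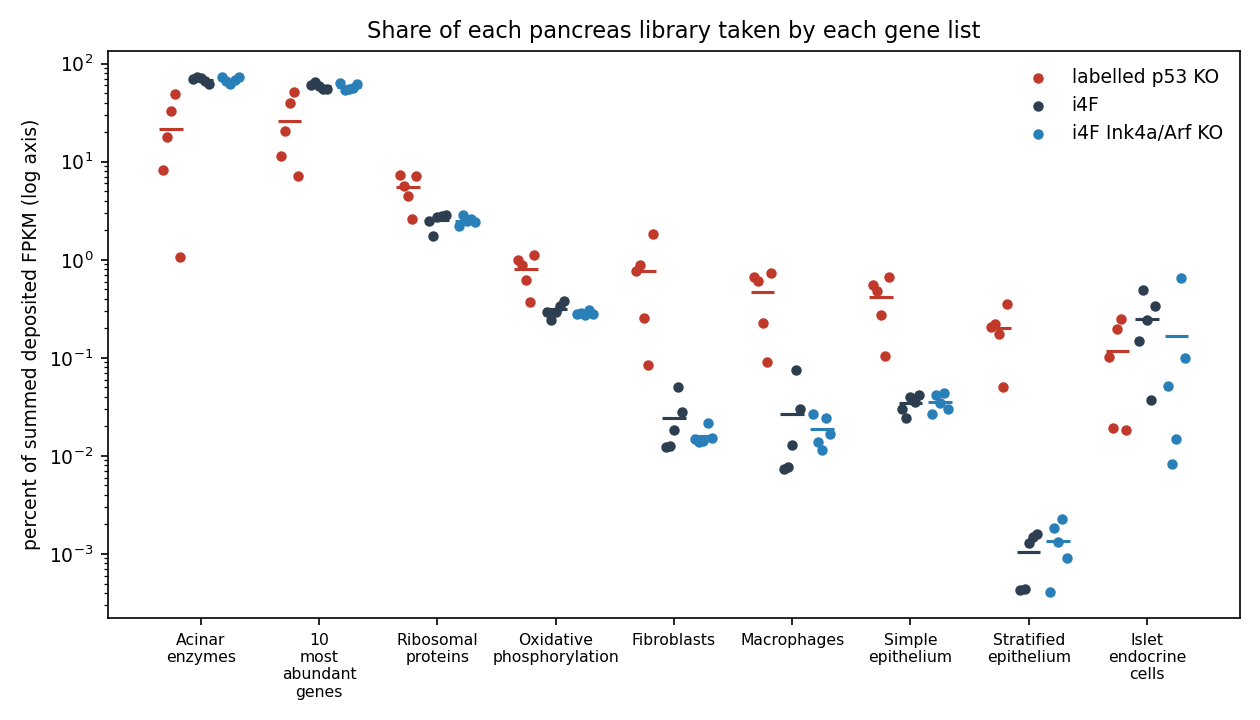
Points give the percent of summed deposited FPKM (log axis) taken by each of 9 gene groups in the 15 pancreas libraries, with the mean of each group as a line. Acinar enzymes run from 1.06 to 48.7% in labelled p53 KO and from 61.7 to 73.8% in i4F, while fibroblast, macrophage, simple and stratified epithelium shares are higher in every labelled p53 KO library.

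Islet hormones were lower and very uneven. Over all tested genes 30.7% were called lower and 45.4% did not overlap. Of 18 tested islet genes 12 fell after scaling (median -1.42; as deposited 1 lower, 3 higher, median -0.49), 1 rose, and the groups did not overlap in 1 list member. Ins2, an insulin gene, measured 90.4, 17.1, 665, 1575 and 7.83 scaled FPKM in labelled p53 KO and 2366, 8190, 2708, 266 and 2522 in i4F. Labelled p53 KO replicates 3 and 4 lay above i4F replicate 4, so the groups overlapped, and the change was -4.23 (SE 1.43, adjusted p = 0.023). Gcg (glucagon) changed by -3.54, Sst (somatostatin) by -2.86 and Ins1 by -3.05 (adjusted p = 0.0326, 0.00848 and 0.0439). With 1 library left out at a time the adjusted p ran over 0.00495 to 0.0591 for Ins2 (not passing without labelled p53 KO replicate 2, labelled p53 KO replicate 5 or i4F replicate 2), 0.00683 to 0.08 for Gcg (passing in 3 of 10 such fits) and 0.0135 to 0.106 for Ins1 (passing in 3 of 10 such fits). The number of islet genes called lower ran from 5 (without labelled p53 KO replicate 5) to 16 (without i4F replicate 4). Nkx2-2, a transcription factor of endocrine cells, fell by 1.42 (SE 0.25, adjusted p = 6.56e-04). As a share of all FPKM the islet list did not pass (0.117 ± 0.103% against 0.251 ± 0.174%, exact permutation p = 0.183, adjusted 0.224).

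Duct genes split. Of 15 tested members 7 rose and 4 fell (median 0.19; as deposited 11 higher and 1 lower, median 2.10). Krt19, a keratin of duct cells and other simple epithelia, measured 264, 296, 454, 239 and 322 scaled FPKM in labelled p53 KO. In i4F it measured 27.3, 22.8, 81.6, 35.6 and 25.1. All labelled p53 KO values were at least 239, the i4F values at most 81.6, and the change was 3.13 (SE 0.33, adjusted p = 3.10e-05). Krt7, another keratin of ducts, rose by 3.90 and Tspan8, a tetraspanin of epithelial surfaces, by 4.12. Tspan8 was 1 of 2 duct genes tested through labelled p53 KO alone, and of the other 13 genes 5 rose and 4 fell (median 0.15). Sox9, a transcription factor of duct cells, differed by -0.50 (adjusted p = 0.0741; 0.92 as deposited, adjusted p = 0.00659). Cldn10, a claudin present in ducts and acini, fell by 3.32 (change of -1.46 as deposited). Among 11 tested genes of the Reg family and acinar injury 2 rose and 3 fell (median 0.29, 2.33 as deposited). Cd44, an adhesion receptor, rose by 3.29 and Nupr1, a stress-response factor, fell by 1.77 (adjusted p = 0.0372, 0.0159 to 0.0877 with 1 library left out at a time, passing in 4 of 10 such fits; 0.27 as deposited). Reg1 fell by 3.85 (SE 1.14, adjusted p = 0.0122). That call was lost under quantile normalization (-0.84, adjusted p = 0.364), without the filter (adjusted p = 0.176) and in male libraries alone (adjusted p = 0.0541). Reg3b, at 3134, 6122, 33470, 60530 and 693 scaled FPKM against 7431, 1862, 1113, 2202 and 6754, overlapped between the groups (1.38, adjusted p = 0.31).

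Genes of stratified epithelium, the layered lining of skin, mouth and forestomach, had the highest median of the 37 lists with at least 4 tested members. Of 24 genes 10 were tested and all 10 rose with no overlap (median 4.62, 6.14 as deposited). Among all tested genes 33.4% were called higher and 45.4% did not overlap in either direction. The next counts are of the 10 list genes. Of these 5 passed the filter through labelled p53 KO alone and so had to be higher there; the other 5 also rose (median 4.31). Krt6a, a keratin of activated and wounded stratified epithelium (chromosome 15, 101689910 to 101694307), was deposited at 150, 173, 248, 72.6 and 342 FPKM in labelled p53 KO. In i4F it was deposited at 0.0832, 0.054, 0.503, 0.206 and 0.758 FPKM. The scaled change was 5.83 (SE 0.31, adjusted p = 7.51e-07). Krt13, a keratin of mouth and oesophagus, rose by 5.67, Krt14, the keratin of basal keratinocytes, by 5.36, Sfn (14-3-3 sigma) by 4.31 and Serpinb5 (maspin) by 2.17. The scaled values of Krt14 were 27.8, 59.5, 51.6, 29.9 and 86.4 in labelled p53 KO. In i4F they were 0.114, 0.114, 0.0866, 0 and 0.596. Krt6a, Krt14 and Serpinb5 were tested through labelled p53 KO alone, so they had to be higher there as deposited.

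Other defining genes of that lining were near 0. Krt5, the usual partner of Krt14, measured at most 0.0362 scaled FPKM in any of the 10 libraries, and Trp63, the transcription factor of basal stratified cells, at most 0.209, in i4F replicate 4. Of the 24 list genes 13 did not reach the filter, among them Krt15, Ivl, Lor, Dsg3 and Col17a1, so the name of the list is not given to a cell type here. The largest rises by the naming rule also included genes on no list: Ly6g6c rose by 6.20, Nccrp1 by 5.62, Mal, a membrane protein of apical transport, by 5.46, and Anxa8 and Anxa10, both annexins, by 5.41 and 5.28. Anxa10 was tested through labelled p53 KO alone. Of 7 tested genes of gut-type epithelium 3 rose and 2 fell (median 0.49; as deposited 3 higher, none lower, median 1.43), and of the 6 at 1 FPKM or more in both groups 2 rose and 2 fell (median 0.16). Tff1, a trefoil peptide of stomach surface cells, rose by 5.36 with replicate 3 far above the others (172, 104, 1223, 325 and 64 against 1.19, 1.22, 11.8, 6.17 and 7.83), and Gkn1, a stomach surface protein, by 2.95.

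The promoters of 3 of these genes are shown because TGANTCA is common in them. This pattern is looser than the AP-1 site bound by Fos and Jun proteins, because it allows any central base. The lines give the 250 bases before the start (RefSeq, GRCm38.p6) for Krt13 at chr11:100121567-100121816 on the minus strand, Sprr1a, which encodes a protein of the cornified envelope, at chr3:92485882-92486131 on the minus strand, and Serpinb5 at chr1:106860925-106861174 on the plus strand, with TGANTCA in capitals.
Krt13: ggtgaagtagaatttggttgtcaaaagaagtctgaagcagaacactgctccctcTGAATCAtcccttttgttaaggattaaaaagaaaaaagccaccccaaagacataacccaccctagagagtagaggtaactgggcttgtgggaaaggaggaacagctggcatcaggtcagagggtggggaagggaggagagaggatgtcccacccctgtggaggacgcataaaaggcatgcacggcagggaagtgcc
Sprr1a: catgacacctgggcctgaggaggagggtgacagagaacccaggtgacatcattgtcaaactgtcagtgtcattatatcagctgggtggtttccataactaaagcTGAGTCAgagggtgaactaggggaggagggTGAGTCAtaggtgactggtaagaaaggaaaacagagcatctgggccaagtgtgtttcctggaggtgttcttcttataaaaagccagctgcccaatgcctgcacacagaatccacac
Serpinb5: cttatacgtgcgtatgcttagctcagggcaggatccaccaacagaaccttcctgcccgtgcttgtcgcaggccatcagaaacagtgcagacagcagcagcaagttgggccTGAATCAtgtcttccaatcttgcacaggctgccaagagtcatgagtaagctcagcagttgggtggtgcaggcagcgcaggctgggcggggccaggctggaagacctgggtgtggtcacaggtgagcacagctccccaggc
Sprr1a, named after its values were seen, holds 2 matches and the others 1 each. The central base was G in both matches of Sprr1a and A in those of Krt13 and Serpinb5. Here too a match is a description of the letters and not a binding site. Of the 24 list genes 13 were in the RefSeq table and 7 of these held TGANTCA on either strand (53.8%). Of the top 100 genes 62 were found and 16 held it (25.8%), against 4 of 66 among the bottom 100 (6.06%), 4.51% of the 7708 tested genes in the table and 6.87% of all 27025 promoters. Of 22 acinar enzyme promoters 1 held it (4.55%), that of Ctrl, with T at the centre. TGANTCA reads the same on both strands, and none of the 3 patterns searched contains another. Sprr1a rose by 3.72 (SE 0.31, adjusted p = 7.46e-06), but it too was tested through labelled p53 KO alone.

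Of 16 tested immediate early genes, some of which encode AP-1 proteins, 15 were higher (median 1.36, 2.83 as deposited). Among the 13 not tested through labelled p53 KO alone 12 rose. A link between these genes and the promoters above was not tested. Fos, tested through labelled p53 KO alone, rose by 2.45, and Jun rose by 1.07. Junb measured 42, 44.3, 42.3, 29.8 and 57 scaled FPKM in labelled p53 KO. Its i4F values were 3.4, 3.4, 4.23, 5.07 and 4.79, so the groups lay far apart (3.07, SE 0.17, adjusted p = 7.55e-07).

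Simple epithelial genes moved less evenly. Of 18 tested 10 rose and 1 fell (median 0.46; as deposited 17 higher, none lower). Krt8 rose by 1.99 and its partner Krt18 by 0.52 (SE 0.20, adjusted p = 0.0448, 0.0137 to 0.103 with 1 library left out at a time, passing in 3 of 10 such fits). Cdh1, E-cadherin, rose by 1.26, and Cldn4, a tight junction claudin, by 5.52 (SE 0.40, adjusted p = 3.18e-06). Prss8, a membrane protease, was the 1 member that fell (-2.17; -0.22 as deposited, adjusted p = 0.336).

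**Figure D3:**
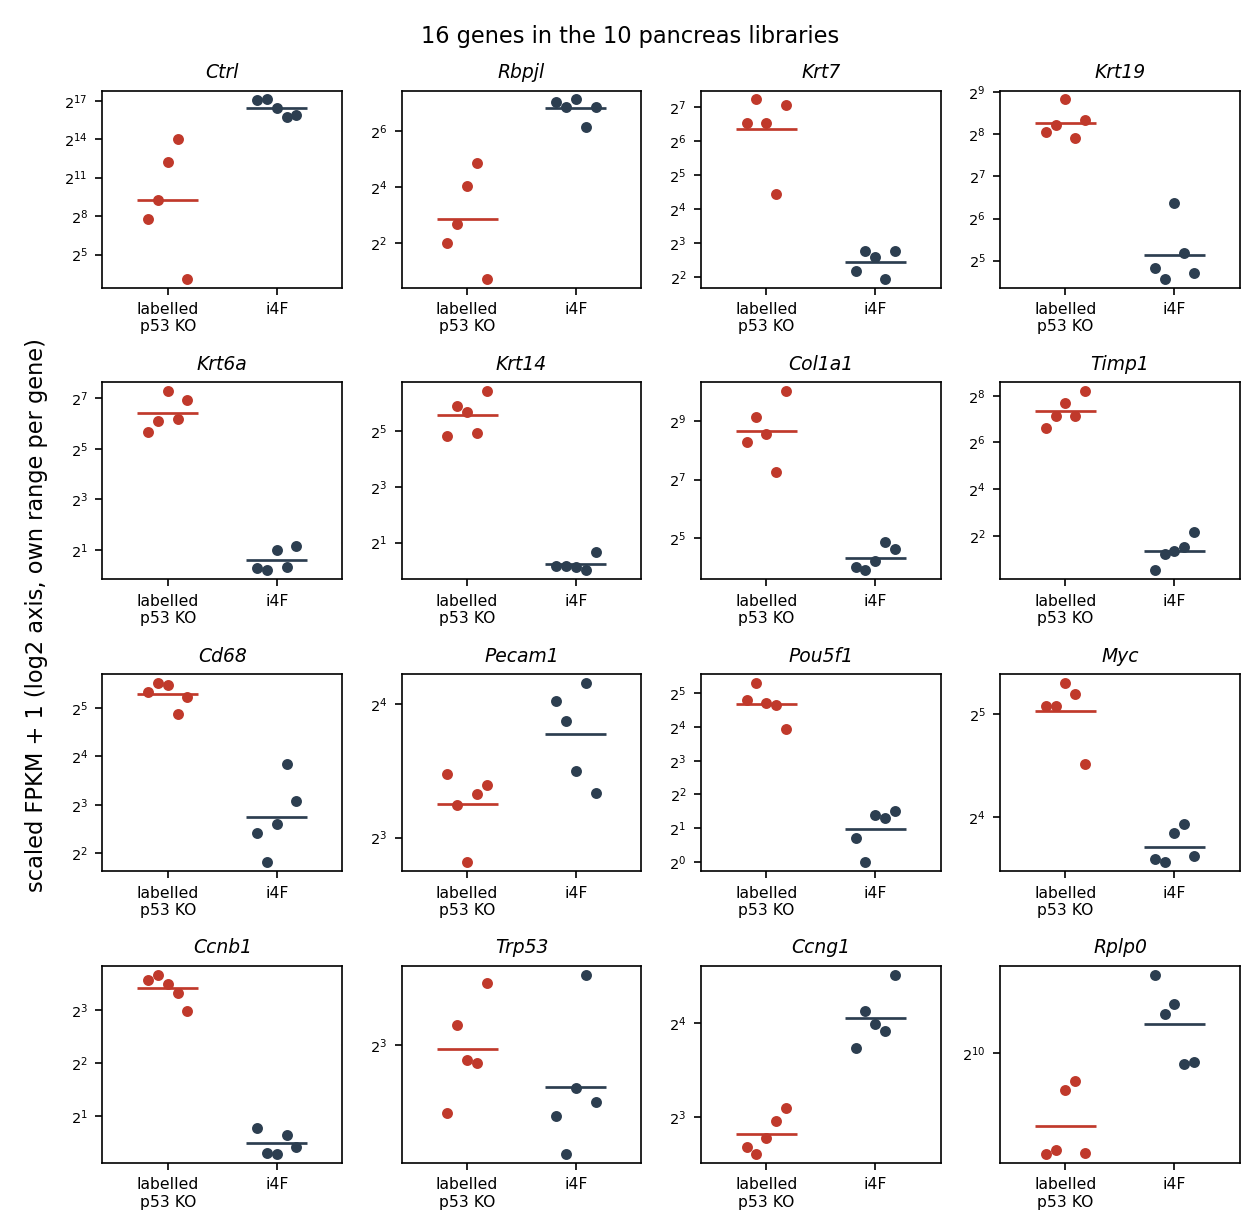
Each panel shows 1 gene, with scaled FPKM + 1 on a log2 axis of its own range, points for the 5 libraries of each group and a line at the mean of the log2 values. Trp53 and Pecam1 overlap between the groups, the other 14 genes do not, and the spread of Ctrl and Rbpjl in labelled p53 KO is wide.

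Fibroblast and matrix genes rose together. Of 23 tested fibroblast genes 18 rose and 1 fell (median 1.91, 3.67 as deposited), and of 27 tested matrix remodelling genes 24 rose (median 2.44; 17 of the 20 not tested through labelled p53 KO alone). Timp1, an inhibitor of matrix proteases (chromosome X, 20870166 to 20874735), measured 97.6, 141, 206, 141 and 292 scaled FPKM in labelled p53 KO. The i4F libraries held 0.448, 1.37, 1.54, 1.89 and 3.44. Its change of 6.00 (SE 0.33, adjusted p = 7.56e-07) was second among the rises ranked by the naming rule, after Ly6g6c. Col1a1, the main fibrillar collagen, measured 312, 555, 376, 154 and 1034 in labelled p53 KO and 15, 13.9, 17.7, 28.3 and 23.8 in i4F, with replicate 5 highest and replicate 4 lowest of the former (4.33). Col3a1 rose by 3.56, Sparc by 2.76 and the collagen crosslinking enzyme Lox by 4.03. Other fibroblast genes did not move as far: Pdgfra, a growth factor receptor, rose by 0.91, Dpt, a matrix protein, fell by 1.23 (SE 0.41, adjusted p = 0.0218; 0.64 as deposited; -0.46 and adjusted p = 0.352 with acinar genes left out of the scaling) and Dcn (decorin) differed by -0.34 (adjusted p = 0.459; 1.68 as deposited). Of 10 tested genes of smooth muscle and pericytes 6 rose and 2 fell (median 0.61; as deposited 9 higher, none lower, median 2.14). The contractile genes Acta2 and Tagln rose by 2.75 and 2.35, while Myh11, the myosin of mature smooth muscle, differed by -0.36 (adjusted p = 0.117; 0.68 as deposited). Vim rose by 1.51, S100a4 by 3.48 and Snai1, a repressor of epithelial genes, by 1.98.

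Macrophage genes rose, 21 of 22 tested with none lower (median 1.99, 3.57 as deposited). Cd68, a lysosomal protein of macrophages, measured 39.4, 44.6, 43.3, 28.4 and 36.2 scaled FPKM in labelled p53 KO. In i4F it measured 4.32, 2.53, 5.11, 13.3 and 7.49. Replicate 4 was the highest i4F library and still lay below all of the other group (2.53, SE 0.32, adjusted p = 8.63e-05). Adgre1, listed under its older symbol Emr1, rose by 1.61, Csf1r, the receptor for macrophage growth factor, by 1.38, Itgam by 2.67 and Cd14 by 2.22. Csf1r of labelled p53 KO replicate 4 (13.7) lay below i4F replicate 4 (16.5). Without both of these libraries 22 of 22 rose (median 2.38). Of 5 tested neutrophil genes 3 rose (median 2.63), with large values in single libraries. S100a8, a calcium-binding protein of neutrophils, measured 895, 65.3, 18.3, 16 and 72.6 against 2.95, 0.728, 1.65, 176 and 2.39, a change of 3.40 (adjusted p = 0.0479; 0.00249 to 0.111 with 1 library left out at a time, passing in 3 of 10 such fits), and S100a9 did not pass (2.94, adjusted p = 0.0754).

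Lymphocytes were near the floor in most libraries. None of 20 T and natural killer cell genes and none of 13 B cell genes reached the filter. Cd3e, of the T cell receptor complex, was highest in labelled p53 KO replicate 1 (1.62 scaled FPKM) and i4F replicate 4 (2.23), and Cd79a, of the B cell receptor, in the same 2 libraries (7.57 and 43.8). Genes of antigen presentation by MHC class II and dendritic cells did not rise with the macrophage genes. Of 8 tested 4 fell after scaling (median -0.98), while as deposited 4 were higher (median 0.63). H2-Aa measured 54, 20.7, 25.4, 39 and 9.83 scaled FPKM in labelled p53 KO and 47.9, 42.5, 50.5, 296 and 88.3 in i4F, and its change of -1.55 (adjusted p = 0.0331, 0.0228 to 0.0781 with 1 library left out, passing in 6 of 10 such fits; 0.43 as deposited) was -1.07 without i4F replicate 4. Zbtb46, a transcription factor of dendritic cells, fell by 0.63 (0.58 as deposited). Summed MHC class II and dendritic cell genes reached 1125 scaled FPKM in i4F replicate 4, against a median of 186.5 in i4F and 124.2 in labelled p53 KO, and without it 3 of the 8 were called lower and 1 higher. Without labelled p53 KO replicate 5 a single gene of the 8 was called lower, and with acinar genes left out of the scaling none was called.

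After scaling, vessel genes changed little, fat genes fell and genes of the outer lining (mesothelium) rose unevenly. Of 16 tested endothelial genes 5 fell, 1 rose and 10 did not pass (median -0.21), beside 30.7% called lower of all tested genes. The direction of the endothelial median turned as deposited (1.41, all 16 higher) and when acinar genes were left out of the scaling (0.50). Pecam1, an adhesion molecule of endothelium, overlapped between the groups at 10.1, 8.49, 6.05, 9.03 and 9.51 against 15.3, 13.7, 10.3, 16.9 and 9.06 scaled FPKM (-0.53, adjusted p = 0.0263, 0.01 to 0.062 with 1 library left out at a time, passing in 5 of 10 such fits; 1.33 as deposited). Kdr, the main receptor for vascular growth factor, and Plvap, of fenestrated capillaries, fell, with changes of -0.77 and -0.70 (0.88 and 1.29 as deposited), and Cdh5 (VE-cadherin) differed by -0.08 (adjusted p = 0.734; 1.64 as deposited). Lyve1, of lymphatic vessels and some macrophages, was the 1 rise (1.63). Adipocyte genes were mostly under the filter: 4 of 14 were tested and fell, among them Fabp4 (-1.34; 0.65 as deposited) and Lpl (-1.52; 0.36 as deposited), and Adipoq was at 41.2 scaled FPKM in i4F replicate 4 and under 1 in the other 9 libraries. Without that library 3 of the 4 were lower (median -0.73), and with acinar genes left out of the scaling none was. Of 4 tested mesothelium genes 2 rose and none fell (median 1.89, 3.37 as deposited and -0.10 without the filter). Msln, a surface protein of mesothelium and of some epithelia, rose by 4.76 (SE 0.51, adjusted p = 3.29e-05), whereas Upk3b, another mesothelial marker, overlapped (-0.38, adjusted p = 0.561; 0.93 as deposited). For the shares of kidney and liver transcripts no difference was detectable (adjusted p = 0.969 and 0.992, exact permutation test).

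Genes of cell division were higher. All 25 tested mitosis genes rose (median 2.01), but 21 of them were tested through labelled p53 KO alone, and the other 4 also rose. Of 27 tested replication genes 25 rose (14 of the 16 not tested that way; median 1.22, 2.48 as deposited). Ccnb1, the cyclin that starts mitosis, measured 11, 11.8, 10.3, 9.13 and 6.94 scaled FPKM in labelled p53 KO. Its i4F values were 0.711, 0.225, 0.214, 0.546 and 0.326. No i4F library reached 1, and labelled p53 KO replicate 5 was the lowest of its group (2.94, SE 0.15, adjusted p = 7.09e-07). Mki67 rose by 1.80. Ccnb1 and Mki67 were tested through labelled p53 KO alone, so they had to be higher there as deposited. Top2a, which reached 1 FPKM as deposited in i4F replicate 4, rose by 2.42. Pcna, the replication clamp, rose by 1.25 (SE 0.14, adjusted p = 4.53e-05) and Mcm2, of the replicative helicase, by 0.65 (adjusted p = 0.0491, 0.00704 to 0.122 with 1 library left out, passing in 2 of 10 such fits). Of the pluripotency genes besides the 4 factors 5 of 28 were tested, and 3 rose and 1 fell (median 0.59). L1td1 (1.98) was 1 of the 2 tested through labelled p53 KO alone, and of the other 3 genes 1 rose and 1 fell (median -0.15). Of 6 tested oncofetal genes 4 rose and 1 fell (median 1.5995), but 3 were tested through labelled p53 KO alone, and of the other 3 genes 1 rose and 1 fell (median 0.285). H19, a noncoding RNA, and Igf2, a fetal growth factor, were both tested that way and rose by 1.86 and 1.65, with H19 highest in replicate 2 (3.04, 8.4, 2.45, 2.16 and 1.98 scaled FPKM). Signalling genes had no common direction: of 13 tested Notch genes 4 rose and 5 fell (median -0.02, 1.24 as deposited), among them the receptor Notch4 (1.33) and the receptor-modifying enzyme Lfng (-1.24; 0.64 as deposited). Notch4 was 1 of 2 tested through labelled p53 KO alone, and of the other 11 genes 3 rose and 5 fell. These Notch counts stand beside 33.4% called higher and 30.7% lower of all tested genes. Of 6 tested Wnt genes 1 rose, the secreted antagonist Sfrp1 (3.01), and 2 fell.

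Targets of p53 had no direction common to the scalings. Of 29 tested 6 rose and 12 fell (median -0.13). As deposited 23 were higher (median 1.34). With acinar genes left out and libraries scaled to the total of the rest, 10 were higher, 3 lower and the median was 0.47. Among the 24 not tested through labelled p53 KO alone 1 rose and 12 fell after the main scaling (median -0.38). Beside them, 2829 were called higher and 3262 lower of the 9753 genes at 1 FPKM or more in both groups. Cdkn1a, which encodes the cell cycle inhibitor p21, measured 23, 23.1, 35, 28.1 and 56.5 scaled FPKM in labelled p53 KO. The i4F libraries held 6.51, 6.18, 56.1, 46.3 and 13.3. The i4F libraries were uneven, with replicates 3 and 4 close to the highest value of the other group, and the difference of 0.81 did not pass (SE 0.59, adjusted p = 0.245). Mdm2, the p53 inhibitor, overlapped (-0.04, adjusted p = 0.799; 1.64 as deposited). Ccng1 measured 5.41, 5.08, 5.83, 6.77 and 7.52 against 12.3, 16.5, 14.9, 14.1 and 21.9 with no overlap and fell by 1.24 (SE 0.15, adjusted p = 8.59e-05; 0.61 as deposited, adjusted p = 0.104). The enzymes Ephx1, Dcxr and Mgmt changed by -2.004, -2.09 and -1.66 (-0.22, -0.25 and -0.06 as deposited, none called). Among the rises, Ckap2 (1.53) and Gtse1 (1.12) are genes of dividing cells, and Tnfrsf10b, a death receptor, and Apaf1, of the apoptosome, rose by 0.83 and 0.93. Each of these passed the filter through labelled p53 KO alone, so it had to be higher there as deposited.

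Secreted and inflammatory genes were higher. Of 16 tested secreted senescence factors 14 rose (6 of the 8 not tested through labelled p53 KO alone; median 1.68). Il6, an inflammatory cytokine, measured 0.848, 1.45, 1.96, 1.86 and 2.29 scaled FPKM in labelled p53 KO and was listed at 0 in 4 of 5 i4F libraries. It was tested through labelled p53 KO alone. Ccl2, which attracts monocytes, rose by 3.62 and Plaur, the urokinase receptor, by 4.46. Of 17 tested acute phase and complement genes 10 rose and 1 fell (median 0.98, 2.82 as deposited). Lcn2, which binds bacterial iron carriers, rose by 5.23 and Saa3 by 4.59, and complement C3 overlapped, with i4F replicate 4 highest (78.7, 67.6, 40.1, 51.2 and 21.8 against 12.2, 26.2, 20.4, 138 and 34.1; 0.57, adjusted p = 0.399). Of 25 tested interferon response genes 18 rose and 1 fell (median 0.79, 2.12 as deposited), with Isg15 at 1.79, Irf7 at 1.73 and Xaf1 at 2.16. Xaf1 was 1 of 4 tested through labelled p53 KO alone, and of the other 21 genes 15 rose and 1 fell. Macrophage transcripts were higher in the same libraries (summed list of 761 to 1440 scaled FPKM against 147 to 716), and their part in these rises was not tested.

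Genes that serve protein secretion were lower after scaling and mixed as deposited. Of 26 tested genes of the unfolded protein response and folding, which matches the folding capacity of the endoplasmic reticulum to its load, 19 fell and 1 rose (median -1.26; as deposited 5 lower, 13 higher, median 0.67). Herpud1 and Edem1, which help clear misfolded proteins, fell, with changes of -2.79 and -2.51, and were called lower as deposited too (-0.78 and -0.54). Edem1 measured 9.18, 11, 20.6, 33.7 and 10.6 scaled FPKM in labelled p53 KO and 100, 105, 82.8, 80.2 and 87.5 in i4F. Its labelled p53 KO values were highest in replicate 4 and lowest in replicate 1, and all lay below i4F. Xbp1, the transcription factor of that response, fell by 1.83 (0.20 as deposited), the chaperone Hspa5 fell by 0.81 (1.22 as deposited), and Pdia3, a folding enzyme, was the 1 rise (0.76). Of 31 genes of the translocon and signal peptidase 25 fell (median -0.99; as deposited 22 higher, 2 lower), with Sec61a1 at -0.98 (1.03 as deposited) and Srp9 at -1.93 (0.07 as deposited).

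Ribosomal protein and respiratory chain genes took their direction from the scaling. All 38 ribosomal protein genes fell after median-of-ratios scaling (median -1.07), 34 were called higher as deposited (median 0.97), and 7 and 5 fell under quantile normalization (median -0.10) and with acinar genes left out of the scaling (-0.22). As a share of all FPKM they were higher in labelled p53 KO, 5.47 ± 2.00% against 2.53 ± 0.463% (exact permutation p = 0.0317, adjusted 0.0436). Rplp0 changed by -0.92 and Rpl32 by -1.61 (1.13 and 0.43 as deposited). Of 39 genes of oxidative phosphorylation 34 fell after scaling (median -0.89) and 37 were higher as deposited (median 1.14), with a share of 0.798 ± 0.304% against 0.312 ± 0.0524% (adjusted p = 0.025). Ndufa1 changed by -1.97 (0.04 as deposited) and Atp5b by -0.54 (adjusted p = 0.0275, 0.019 to 0.074 with 1 library left out, passing in 5 of 10 such fits; 1.496 as deposited). Glycolysis and hypoxia genes went up on both scales, 16 of 21 tested (median 1.34, 2.94 as deposited; 2 fell after scaling). Eno1 and Ldha, enzymes of glycolysis, rose by 2.47 and 1.77, and Vegfa, the vascular growth factor, fell by 1.03 (0.83 as deposited).

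**Figure D4:**
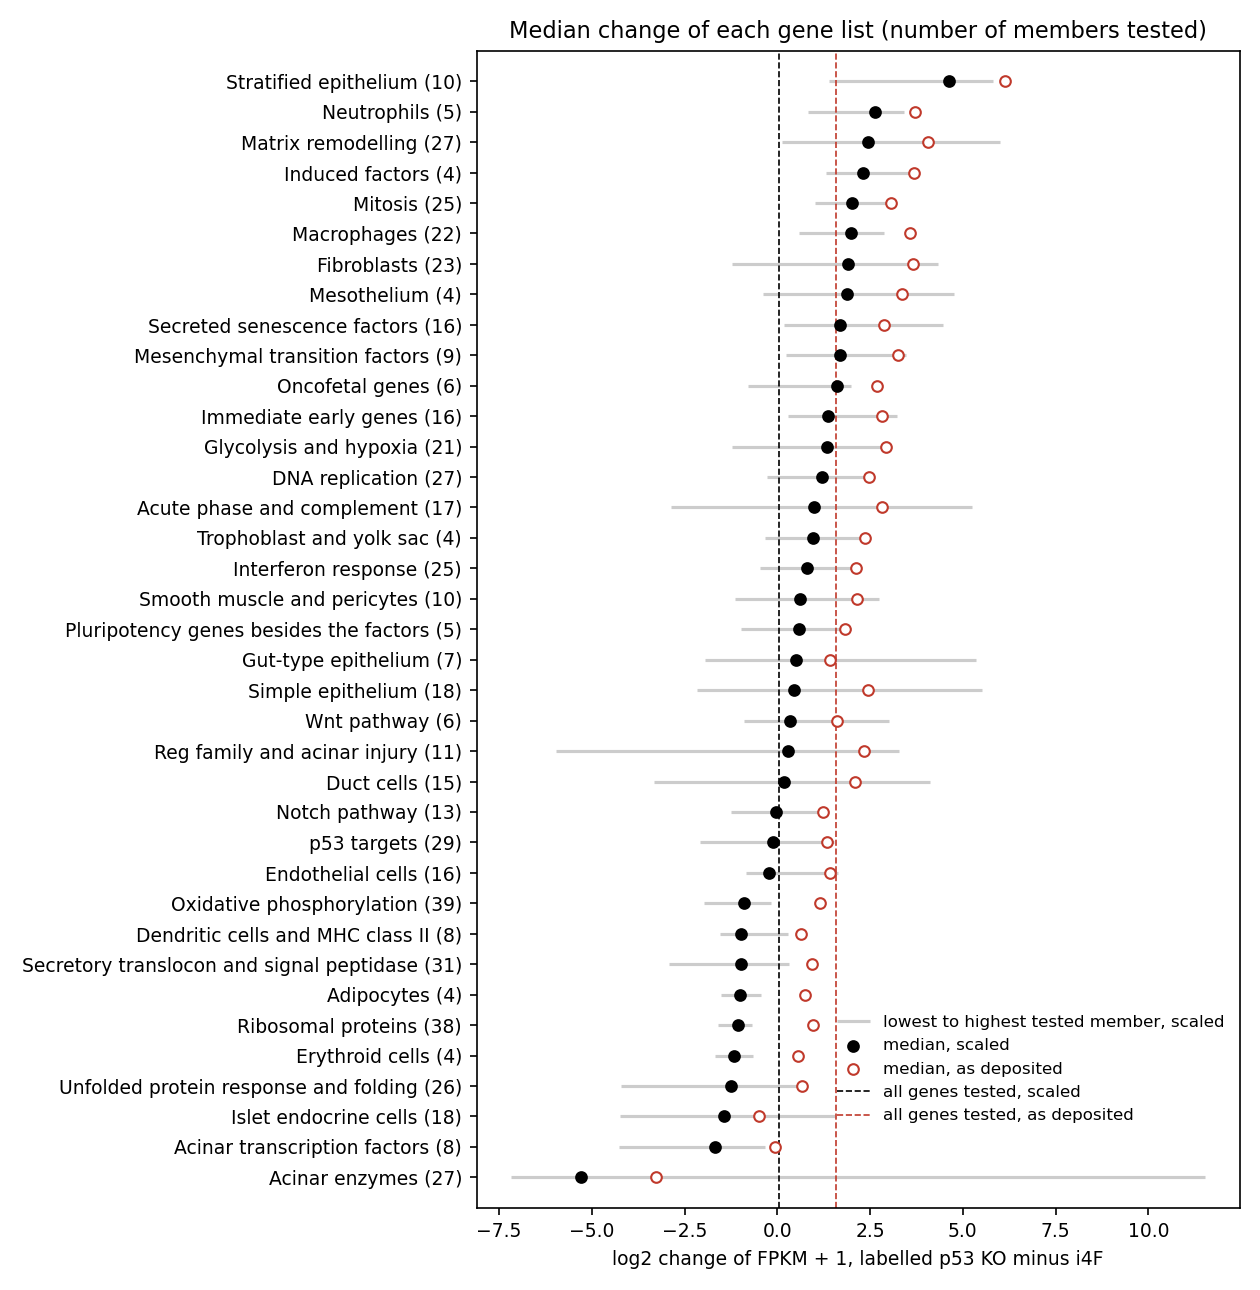
For each of 37 gene lists with at least 4 tested members, the log2 change of FPKM + 1 (labelled p53 KO minus i4F) is shown as the median scaled (black), the median as deposited (red circle) and the scaled range of its members (grey), with dashed lines at the medians of all tested genes. Stratified epithelium has the highest median (4.62) and acinar enzymes the lowest (-5.29), and the endothelial, adipocyte, p53 target, ribosomal, respiratory and unfolded protein response lists change sign between the scales.

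Within labelled p53 KO the lists did not move in parallel. The median of acinar enzymes, as a scaled log2 difference from the i4F mean over the 15 pancreas libraries, was -6.42, -4.89, -2.87, -1.61 and -9.24 in replicates 1 to 5. For stratified epithelium the medians were 4.01, 4.44, 4.84, 3.94 and 4.62, a narrower range. Fibroblast medians were 1.66, 1.97, 1.62, 0.89 and 2.60, highest and lowest in the libraries with the least and the most acinar RNA. For the induced factors they were 2.35, 2.38, 2.23, 2.04 and 1.74, lowest in replicate 5. In i4F Ink4a/Arf KO the medians of the same lists were -0.01 to 0.41 for acinar enzymes and -0.25 to 0.18 for stratified epithelium. Without labelled p53 KO replicate 5 the acinar median was -4.003 and 21 members fell, and without the 4th library of each group it was -6.31 and 21 fell.

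**Figure D5:**
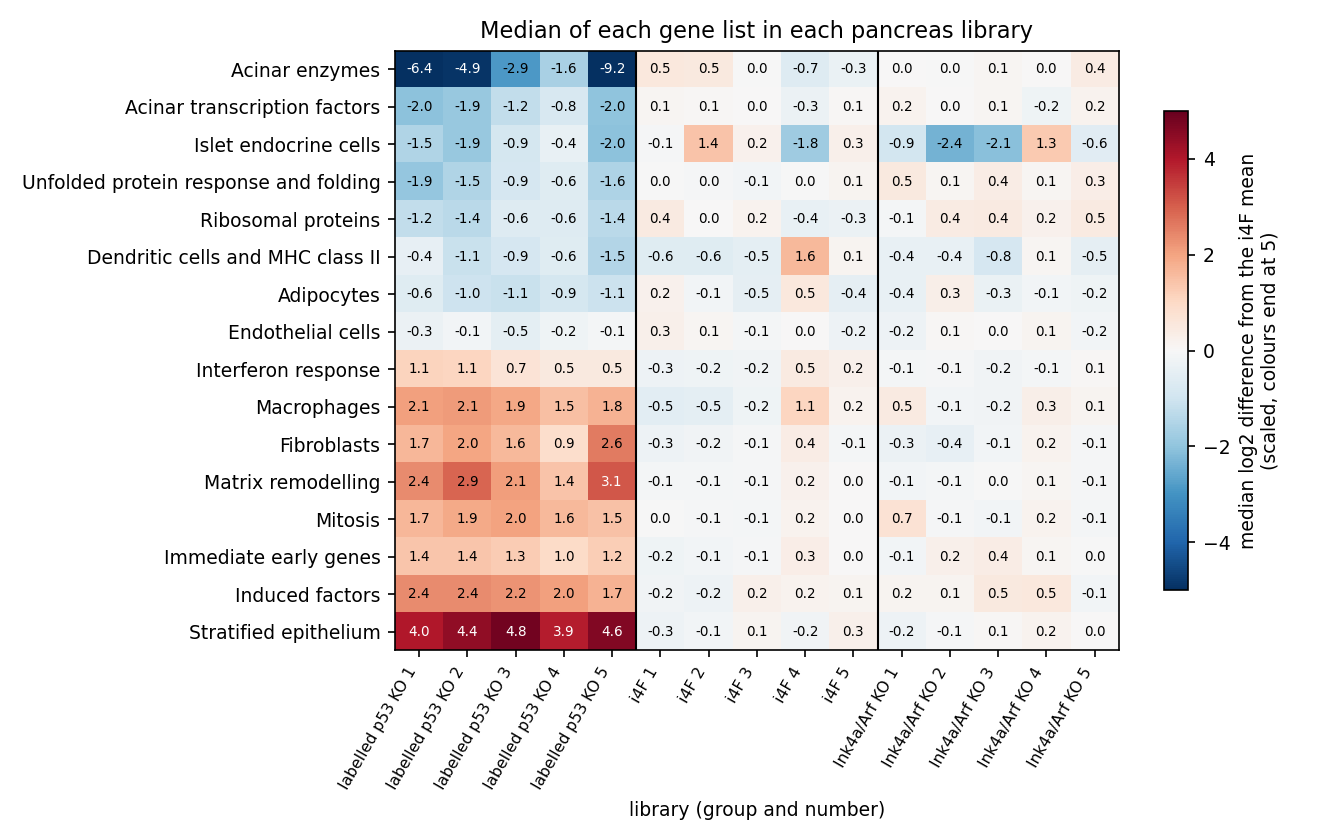
Each cell gives the median log2 difference (scaled) of a gene list in 1 pancreas library from the mean of the 5 i4F libraries, with colours ending at 5. Acinar medians vary from -1.61 to -9.24 over the labelled p53 KO libraries while stratified epithelium stays between 3.94 and 4.84, and i4F replicate 4 is high for MHC class II and macrophage genes.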

How the data were processed

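RNA-seq values of 10 mouse pancreas libraries, each a separate mouse per the design text, were taken from the deposited pancreas table. The deposited values are FPKM per gene, and FastQC, TopHat2 2.0.10, Bowtie 1.0.0, SAMtools 0.1.19, Cufflinks 2.2.1 and the mm10 build are named in the submitters' processing notes. Per the labels' protocols, libraries were made from 1 µg of RNA (RNA integrity averaged 8.0, lowest 7.4 and highest 9.4) with 8 PCR cycles. FPKM keep no counts, so no counting interval can be given, and they count all fragments of a gene relative to the whole library, so a few very abundant genes lower the FPKM of all others.

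Genes that reached 1 FPKM in 5 or more of the 10 libraries were scaled by median-of-ratios factors, and log2(FPKM + 1) was tested with limma 3.58.1 (R 4.3.3; Python 3.11.15 for tables) in the 10 libraries without covariates, with Benjamini-Hochberg adjustment over the 10703 genes and a threshold of 0.05. A fold change on that scale understates the change of low genes. Of the gene names 27 occur more than once in the table. In simulated data of these 10703 genes, 76% of 100 genes changed by 1 log2 unit were recovered. Of 100 changed by 1.5 log2 units 93% were recovered, with 5.59% of calls false. In the 10 libraries far more genes were called (6858). Acinar enzyme shares spread more widely in labelled p53 KO than in i4F (SD 19.2 against 4.81 percentage points). Whether the simulated rates hold for these libraries was not tested. The comparison, its members and the 45 gene lists (863 genes) were chosen with earlier results of these data known. Named genes are Trp53, Cdkn2a, Cdkn1a, Nanog, Il6 and the induced factors, the first 3 of each list, up to 4 called members of each list per direction with the smallest p, and the 12 largest rises and falls among called genes without overlap and with a mean of at least 5 scaled FPKM in the higher group. That last part left out predicted genes and genes listed at 0 in 1 library and at 1000 FPKM or more in another. Ctrb1 and Sprr1a lie outside this rule, and some genes that it names are not reported here. Shares of summed FPKM were compared with a two-sided exact permutation test. Gene positions are from GENCODE M21 and promoters from RefSeq. Alternatives were other scalings, filters, a pseudocount of 0.1, all 15 pancreas libraries, a replicate block, Xist as a covariate, array weights, robust variances and leaving out each library.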

Additional observations from a re-analysis of the deposited data

Results flagged for a closer look

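In 32 of 304 groups of 5 libraries looked at, the highest or the lowest library lay further from its nearest neighbour than Dixon's 95% criterion allows, and chance does so in about 1 in 20 groups. Values are scaled FPKM. In i4F, replicate 4 was the highest library for S100a8 (175.6), S100a9 (96.64), Cd79a (43.83), Cd3e (2.227), Adipoq (41.2), Dcn (172.6), Vim (80.39), Fos (1.076), Mki67 (0.5745), Apaf1 (1.272), Trp63 (0.2093) and Il6 (0.05237). The same library was the lowest for Rbpjl (70.44). In i4F replicate 5, Krt14 (0.5961) and Mal (3.279) were highest, as was the share of kidney genes (0.007642% of summed FPKM). Serpinb5 was highest in i4F replicate 3 (0.03062), Tspan8 was lowest in i4F replicate 1 (0.3332) and Hspa5 was lowest in i4F replicate 2 (175.8). The acinar genes Cpa1 and Prss2 were listed at 0 in i4F replicate 5 and Cela1 at 0 in i4F replicate 1.

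In labelled p53 KO, replicate 4 was the lowest library for Krt7 (20.94), Anxa8 (36.83) and Cdh1 (48.0), and replicate 5 for Myc (21.88) and Dpt (1.923). Replicate 1 was the highest for Cd3e (1.62) and Cd79a (7.565) and for the share of liver genes (0.006636%). Krt8 was highest in replicate 3 (553.1) and H19 in replicate 2 (8.4).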

How the results depend on the processing

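The 3 counts of called genes stayed within 1.5 times the main value in 74 of 81 refits and moved in 7. With FPKM as deposited 9645 genes were higher and 205 lower. With acinar enzyme genes removed and libraries scaled to the total FPKM of the rest, 5795 were higher and 830 lower. With a filter of 5 FPKM 3558 were called, 1678 higher and 1880 lower, of fewer genes tested. Leaving out each library gave 6109 to 7053 calls. With the replicate block 6014 genes were called, 3172 higher and 2842 lower. Same-numbered libraries were not paired, with correlations of their deviations of -0.21, -0.14, 0.18, -0.39 and 0.07 for numbers 1 to 5, and 1 number matched itself best. The shares lose their calls under that block because 5 pairs allow no p under 0.0625. The share called higher was 52.1% with the main scaling, 45.3% after quantile normalization and 97.9% as deposited.

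As deposited, list medians turned to 1.41 (Endothelial cells), 0.63 (Dendritic cells and MHC class II), 0.75 (Adipocytes), 0.57 (Erythroid cells), 1.34 (p53 targets), 0.67 (Unfolded protein response and folding), 0.93 (Secretory translocon and signal peptidase), 0.97 (Ribosomal proteins) and 1.14 (Oxidative phosphorylation). Genes turned to 0.44 (Prss2), 1.35 (Gata6), 0.92 (Sox9), 1.68 (Dcn), 0.64 (Dpt), 0.68 (Myh11), 0.43 (H2-Aa), 0.58 (Zbtb46), 1.33 (Pecam1), 1.64 (Cdh5), 0.88 (Kdr), 1.29 (Plvap), 0.65 (Fabp4), 0.36 (Lpl), 0.93 (Upk3b), 1.64 (Mdm2), 0.61 (Ccng1), 0.20 (Xbp1), 1.22 (Hspa5), 1.03 (Sec61a1), 0.066 (Srp9), 1.13 (Rplp0), 0.43 (Rpl32), 1.4965 (Atp5b), 0.043 (Ndufa1), 0.83 (Vegfa), 0.64 (Lfng) and 0.27 (Nupr1). With acinar genes removed, medians turned to 0.50 (Endothelial cells) and 0.47 (p53 targets) and genes to 0.38 (Gata6), 0.076 (Sox9), 0.51 (Dcn), 0.087 (Myh11), 0.26 (Pecam1), 0.66 (Cdh5), 0.13 (Plvap), 0.19 (Upk3b), 0.68 (Mdm2), 0.043 (Hspa5) and 0.31 (Atp5b). Under quantile normalization 1.57 (Prss2) and 0.31 (Rplp0) turned, with no filter the median became -0.10 (Mesothelium), with 5 FPKM -0.15 (Pluripotency genes besides the factors), with Xist as a covariate 0.56 (Cela1) and 0.13 (Mdm2) turned, and with array weights 0.15 (Dcn) and 0.14 (Cdh5). In alternatives chosen after seeing the data, the values were 1.1999 (Cela1) and 0.14 (Mdm2) in male libraries alone and 0.026 (Dcn), 0.019 (Cdh5), 0.062 (Upk3b) and 0.041 (Mdm2) without the 4th library of each group. The share difference of liver genes turned to -0.0004327 percentage points without genes listed at 0. Leaving out each library gave -0.20 to 0.0303 for Cdh5, -0.10 to 0.0112 for Mdm2, -0.0006819 to 0.001103 percentage points for kidney and -0.0009322 to 0.0004251 for liver. Apart from the scalings, whose construction sets the reference, the cause of these turns was not tested. Of 119 called genes in the text, 109 kept call and direction with each library left out. The depth behind single genes is unknown.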
